A study of Mus musculus with 11 samples.

Results

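A hairpin against Zc3h10 can change how much of an RNA is being made, how much of it is present, or both, and the contrast described here sets one change against the other for every gene. It is the effect of the hairpin on newly made RNA minus its effect on total RNA, on the log2 scale, and it uses all 11 libraries of the series. Newly made RNA was measured as 4sU RNA. Confluent C2C12 cells, a mouse myoblast line, were given 4-thiouridine (4sU), a uridine analogue that cells build into new transcripts, at 300 µM for 30 min, and the RNA that had taken it up was recovered through biotin. A portion of every harvest was set aside as total RNA. All cells, the controls included, carried an adenovirus, given at a multiplicity of infection of 100, with a hairpin under a U6 promoter, either the one against Zc3h10 (shZc3h10) or a scrambled one, and no uninfected cells stand beside them. The 4 groups are 3 libraries of 4sU RNA with shZc3h10, 2 of 4sU RNA with scramble, and 3 of total RNA under each hairpin.

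The amount of an mRNA is set by its synthesis and its decay together. RNA labelled over a short time follows synthesis and processing closely, whereas total RNA holds mostly molecules made before the labelling, so a stable mRNA is rich in total RNA and an unstable one is rich in 4sU RNA. If decay stays the same and cells are near steady state, synthesis and level change by the same ratio and the contrast is near 0. A positive contrast means that the hairpin effect lies higher in 4sU RNA than in total RNA, and a negative one that it lies lower. Zc3h10 encodes a protein with CCCH zinc fingers, a domain found in many RNA-binding proteins.

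The hairpin of the total RNA libraries is in conflict within the deposit. For all 6 of them the hairpin in the file name is not the one in the title and the genotype label, while in the 5 libraries of 4sU RNA names and labels give the same hairpin. The contrast follows the file names. SH-named total libraries are those labelled scramble, WT-named total libraries are those labelled shZc3h10, and the total effect is SH-named minus WT-named. If the labels are right instead, the total effect turns its sign and the contrast becomes a sum of the effects given here. That both effects run the same way by file name was known when the contrast was set up, so their shared direction supports neither reading.

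Zc3h10 (Entrez 103284), the gene the hairpin targets, stood at 9.76, 13.6 and 9.46 CPM, exon counts scaled to a common library size, in 4sU RNA with shZc3h10 and at 16.3 and 15.0 CPM with scramble. In total RNA it stood at 51.3, 66.0 and 37.6 CPM in the SH-named libraries and at 94.0, 157 and 95.6 CPM in the WT-named ones. Within each kind of RNA the groups did not overlap. The lower group was shZc3h10 in 4sU RNA and the libraries labelled scramble in total RNA, which goes against the labels of the total libraries. The total effect was −1.16 (SE 0.25, adjusted p = 0.00528) and the 4sU effect −0.52 (SE 0.29, adjusted p = 0.579). Every adjusted p below is from the quasi-likelihood test of edgeR, adjusted by Benjamini-Hochberg, as are these, unless another tool is named. By exact permutation of CPM, two-sided, p was 0.2 for 4sU exons and 0.1 for total exons, and groups of this size cannot give a p below 0.1. The contrast for Zc3h10 itself was 0.65 (SE 0.39, 95% interval −0.17 to 1.46, adjusted p = 0.525 by edgeR).

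Depth over exons ranged from 10369374 to 19690198 counts in 4sU RNA and from 31058706 to 54075687 in total RNA. The median within-group SD of a gene was 0.176 log2 units in 4sU RNA and 0.285 in total RNA. Sample weights estimated by limma voom were lowest in the total libraries labelled shZc3h10 3 (0.28), scramble 2 (0.34) and scramble 3 (0.454). Introns took 15.3%, 16.2% and 21.9% of the counts in the SH-named total libraries and 13.8%, 10.7% and 11.2% in the WT-named ones, so these groups did not overlap, and 67.9% to 71.7% in 4sU RNA. All 8 myoblast markers were detected, Myod1 at 56.6 to 80.4 CPM in total RNA, and of 36 markers of adipocytes, osteoblasts, macrophages and endothelium 19 stayed under 1 CPM in every library, Adipoq, Ptprc, Pecam1 and Sp7 among them. Others did not: Spp1 stood at 419 to 1123 CPM over all libraries, and in 4sU RNA Lpl reached 335, Runx2 143, Plin4 65.1, Cd68 19.8 and Tie1 5.46 CPM. Their part in the contrasts was not tested. The labels do not say whether replicates were separate cultures, so the p-values rest on a spread between libraries that may be technical.

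No gene passed the test of the contrast. Of 15046 genes tested over exons, from 21677 listed, edgeR's quasi-likelihood test called 0 (0%) at a Benjamini-Hochberg adjusted p below 0.05, and the smallest adjusted p was 0.291. At an unadjusted p below 0.05, the contrast was positive for 1155 genes (7.68%) and negative for 552 (3.67%). The median contrast over all genes was 0.02, with quartiles at −0.39 and 0.46, and the median SE was 0.41. Other tools gave other counts. DESeq2 called 78 genes (0.518%; 76 positive and 2 negative), limma voom with sample weights 478 (3.18%; 392 and 86), and separate fits of each kind of RNA 94 (0.718% of 13100; 53 and 41). Without the total library labelled scramble 2, edgeR called 188 genes (1.26%; 116 and 72), and without any other single library it called 0. Without both this library and the one labelled shZc3h10 3, a setting chosen after the data were seen, it called 1420 (9.97%; 945 and 475).

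With the hairpins taken as labelled, the same edgeR fit called 2123 genes (14.1%), of which 835 (5.55%) were positive and 1288 (8.56%) negative. Without the 4sU library scramble 1, scramble 2 or shZc3h10 3 this count was 1029, 1123 and 1415, and without the total library labelled scramble 2 it was 3246.

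By file name, effects on new and on total RNA ran together for the genes called in both. That direction was known when the contrast was set up, and with the labels followed it would be opposite. The 4sU effect was called for 296 genes (1.97%), 193 higher and 103 lower, and the total effect for 2711 (18%), 935 higher and 1776 lower. That balance depends on the scaling: with each kind of RNA scaled by itself, the total effect was called higher for 1342 genes and lower for 1320. Which kind of RNA has more calls depends on the fit. The joint fit shares its estimate of spread between 4sU and total RNA, whose median within-group SDs were 0.176 and 0.285. With each kind fitted by itself, the 4sU effect was called for 1412 of 13637 genes and the total effect for 889 of 13846. Both were called for 237 genes, of which 153 rose in both, 84 fell in both and 0 moved in opposite directions. Their contrasts ranged from −1.57 to 4.22 with a median of 0.16, and 155 of them were under 0.5 in size. The 95% interval of the contrast lay within −1 and 1 for 72 of the 237, and for 3601 of all genes tested (23.9%), so for most genes these libraries leave a wide range of contrasts possible. Over all genes the effects correlated at Pearson's r = 0.36 and Spearman's rho = 0.39, a description across genes, which are not independent replicates. How many genes were called depended on the libraries kept. The 4sU effect was called for 123, 165 and 116 genes without the 4sU libraries shZc3h10 1, 2 and 3. Of these, 120, 158 and 115 were also called with all libraries. Without the total library labelled shZc3h10 3 it was called for 467, among them all 296 called with every library. Leaving out either 4sU scramble library leaves that group without replicates, so the fall in calls there does not show which genes respond. The total effect was called for 1497, 4307 and 1280 genes without the total libraries labelled scramble 1, 2 and 3.

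**Figure D1:**
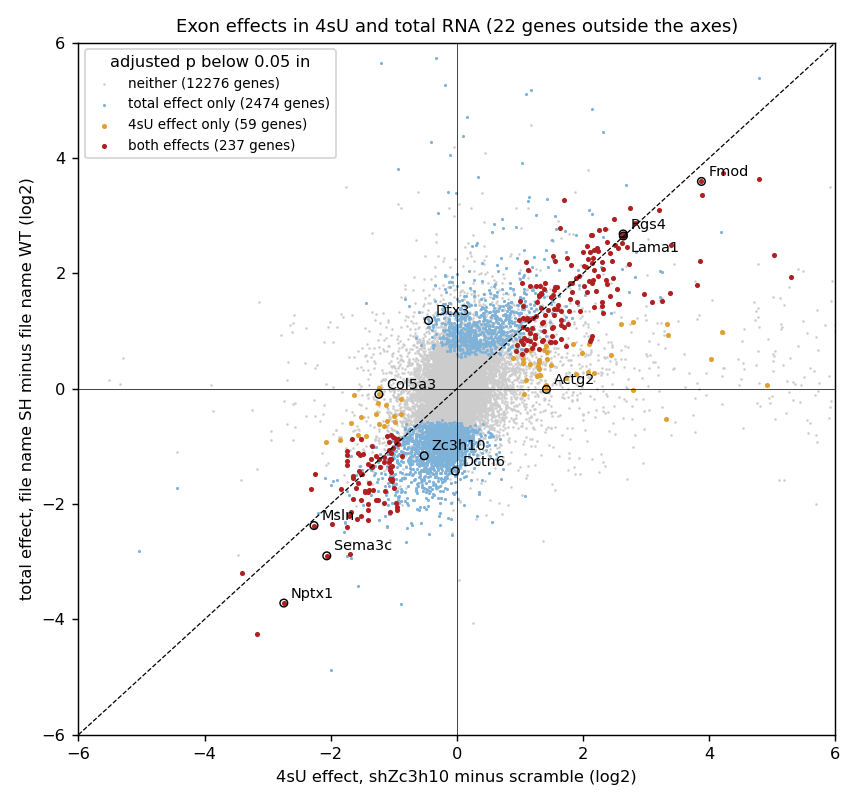
Each point is a gene, placed by its 4sU effect (x axis, shZc3h10 minus scramble, log2) and its total effect (y axis, SH-named minus WT-named, log2), with colours for the test each effect passed; the dashed line marks a contrast of 0. Of the 237 genes called in both effects, 155 lie within 0.5 of the dashed line, while those called only in total RNA lie above and below the horizontal axis with smaller 4sU effects, at medians of 0.37 for the 782 that rose and −0.24 for the 1692 that fell; 22 genes fall outside the axes.

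Among genes called in both effects and at or above the median level, 3 that rose and 3 that fell had the largest 4sU effects. Fmod (Entrez 14264) encodes fibromodulin, a proteoglycan that binds collagen fibrils. It stood at 29.0, 37.0 and 44.8 CPM in 4sU RNA with shZc3h10 against 2.10 and 2.95 CPM with scramble. In total RNA it stood at 73.2, 74.7 and 89.3 CPM in the SH-named libraries against 5.26, 7.26 and 7.12 CPM in the WT-named ones. Neither kind of RNA had overlapping groups, and the rise was 3.88 (SE 0.31, adjusted p = 4.59e-06) in 4sU RNA and 3.59 (SE 0.25, adjusted p = 2.70e-07) in total RNA. The contrast was 0.28 (SE 0.35, 95% interval −0.46 to 1.02).

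Lama1 (Entrez 16772), the alpha-1 chain of laminin in basement membranes, stood at 27.5, 24.9 and 23.3 CPM against 3.52 and 4.59 CPM in 4sU RNA. Its levels in total RNA were much the same, at 20.7, 24.4 and 27.9 CPM in the SH-named libraries against 3.15, 5.22 and 3.25 CPM. Its log2 rise was 2.64 (SE 0.30) in 4sU RNA and 2.65 (SE 0.25) in total RNA, and its contrast of −0.01 had a 95% interval of −0.77 to 0.76. Rgs4 (Entrez 19736), a regulator of G protein signalling, rose by 2.64 (SE 0.43) and 2.68 (SE 0.35), with a contrast of −0.05 and a wider interval of −1.16 to 1.06.

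Msln (Entrez 56047), which encodes the surface protein mesothelin, fell in both by similar amounts. It stood at 15.97, 13.4 and 17.2 CPM against 73.6 and 75.8 CPM in 4sU RNA, and at 23.4, 17.6 and 19.4 CPM against 94.9, 84.3 and 134 CPM in total RNA. Its log2 effects were −2.26 (SE 0.24) and −2.37 (SE 0.22), with a contrast of 0.11 (95% interval −0.57 to 0.79).

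Nptx1 (Entrez 18164), a secreted pentraxin best known from neurons, had effects of −2.74 (SE 0.44) in 4sU RNA and −3.72 (SE 0.42) in total RNA, both called, and a contrast of 0.97 (SE 0.58, adjusted p = 0.526 by edgeR). It stood at 10.3, 11.2 and 5.78 CPM against 67.0 and 54.5 CPM in 4sU RNA. In total RNA it stood at 17.4, 17.7 and 14.2 CPM in the SH-named libraries and at 114, 119 and 414 CPM in the WT-named ones. The last library stands far above the others, and without it the contrast was 0.09. Sema3c (Entrez 20348), a secreted guidance factor, fell by 2.06 (SE 0.29) and 2.90 (SE 0.28), and its contrast was 0.84 (SE 0.39, 95% interval 0.01 to 1.66, adjusted p = 0.437 by edgeR).

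The genes with the smallest p in the contrast were of several kinds. Some had a 4sU effect with little counterpart in total RNA, some a total effect with little counterpart in 4sU RNA, and others, such as Acsf2, Ppp1r8 and Peg13, effects of opposite sign in the different kinds of RNA. None was called by edgeR (adjusted p = 0.361 for each of the 10 genes with the smallest p at or above the median level, 5 in each direction). Limma voom called all 10, at adjusted p-values from 0.00501 to 0.033.

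Actg2 (Entrez 11468), smooth muscle gamma-actin, is the clearest of the first kind. In 4sU RNA it stood at 156, 158 and 175 CPM with shZc3h10 and at 62.3 and 59.5 CPM with scramble. In total RNA it stood at 321, 428 and 349 CPM in the SH-named libraries and at 337, 346 and 423 CPM in the WT-named ones. The 4sU groups lay far apart and the total groups covered the same range. The 4sU effect was 1.42 (SE 0.24, adjusted p = 0.0034), the total effect −0.01 (SE 0.20) and the contrast 1.43 (SE 0.31, 95% interval 0.78 to 2.08). Over introns, Actg2 rose in both kinds of RNA, by 1.43 (adjusted p = 0.00158 by edgeR) in 4sU RNA and by 1.66 (adjusted p = 1.30e-04) in total RNA, so in total RNA its intron counts rose where its exon counts stood level. Actin genes are close copies of each other, and reads may have been shared among them.

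Slc43a1 (Entrez 72401), a transporter of neutral amino acids chosen after its values were seen, showed the same pattern over exons. It stood at 55.8, 65.9 and 56.9 CPM against 30.7 and 26.03 CPM in 4sU RNA, and at 43.4, 60.2 and 42.4 CPM against 46.8, 64.7 and 44.2 CPM in total RNA. It rose by 1.07 (adjusted p = 0.0311 by edgeR) in 4sU RNA, its total effect was −0.09, and its contrast was 1.16 (SE 0.33). Its introns rose by 1.08 (adjusted p = 8.12e-04) in 4sU RNA and stood at 0.03 in total RNA, unlike those of Actg2.

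Col5a3 (Entrez 53867), a chain of the fibrillar collagen V, ran the other way. It stood at 22.4, 20.9 and 20.7 CPM against 52.3 and 48.0 CPM in 4sU RNA, and at 59.3, 41.5 and 58.7 CPM against 53.8, 67.7 and 48.9 CPM in total RNA, where the groups overlapped. It fell by 1.24 (SE 0.23, adjusted p = 0.00694) in 4sU RNA, its total effect was −0.10 (SE 0.20), and the contrast was −1.14 (SE 0.31, 95% interval −1.78 to −0.49). Over introns the 4sU effect was −1.21 (adjusted p = 0.0016 by edgeR) and the total effect −0.57 (adjusted p = 0.0581).

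Dctn6 (Entrez 22428), a subunit of the dynactin complex that links dynein to its cargo, is an example of the second kind. In 4sU RNA it stood at 66.2, 55.3 and 64.9 CPM with shZc3h10 and at 60.0 and 66.4 CPM with scramble. In total RNA it stood at 246, 297 and 185 CPM in the SH-named libraries against 620.4, 684 and 657 CPM in the WT-named ones. Groups overlapped in 4sU RNA, while in total RNA each SH-named library was under every WT-named one by a wide gap. The total effect was −1.43 (SE 0.22, adjusted p = 4.07e-04), the 4sU effect −0.02, and the contrast 1.40 (SE 0.33, 95% interval 0.72 to 2.09).

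Dedd (Entrez 21945), which encodes a death effector domain protein, and Pptc7 (Entrez 320717), a mitochondrial phosphatase, had the same shape. Dedd fell by 1.24 (SE 0.20) in total RNA with a 4sU effect of 0.09, a contrast of 1.33 (SE 0.31). Pptc7 fell by 1.28 (SE 0.19) in total RNA with a 4sU effect of −0.07, a contrast of 1.22 (SE 0.29). Their introns moved little in either kind of RNA: the total effect over introns was −0.02 for Dedd and 0.06 for Pptc7. Acsf2 (Entrez 264895), an acyl-CoA synthetase, fell by 0.76 (SE 0.18, adjusted p = 0.0095) in total RNA while its 4sU effect was 0.52 (adjusted p = 0.305), a contrast of 1.28 (SE 0.28). Limma voom called both effects of Acsf2, at adjusted p = 0.0197 in 4sU RNA and 0.00716 in total RNA.

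In the other direction, Dtx3 (Entrez 80904), a deltex-family ubiquitin ligase, had the smallest p of all genes named here. It stood at 64.8, 51.5 and 60.1 CPM in the SH-named total libraries against 21.7, 25.4 and 30.6 CPM in the WT-named ones. In 4sU RNA it stood at 43.4, 56.3 and 44.1 CPM with shZc3h10 against 73.8 and 56.8 CPM with scramble. The total groups lay apart with the SH-named one higher, and the 4sU groups nearly touched with the shZc3h10 one lower. It rose by 1.18 (SE 0.21, adjusted p = 0.00141) in total RNA, its 4sU effect was −0.45, and the contrast was −1.63 (SE 0.31, 95% interval −2.29 to −0.98).

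Ppp1r8 (Entrez 100336), a nuclear inhibitor of protein phosphatase 1, rose by 0.76 (SE 0.20) in total RNA against a 4sU effect of −0.56, a contrast of −1.33 (SE 0.30). Limma voom called both effects of Ppp1r8, at adjusted p = 0.0189 in 4sU RNA and 0.0313 in total RNA. Peg13 (Entrez 353342), an imprinted non-coding RNA that lies inside the gene Trappc9, rose by 0.75 (SE 0.21) in total RNA against a 4sU effect of −0.38, a contrast of −1.13 (SE 0.31). Itpripl2 (Entrez 319622) rose by 1.38 (SE 0.30) in total RNA and had a contrast of −1.61 (SE 0.45), but its SH-named total libraries spread widely, at 59.4, 29.5 and 90.3 CPM against 23.9, 26.5 and 18.6 CPM. The lowest of these 3, the library labelled scramble 2, came close to the WT-named group.

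**Figure D2:**
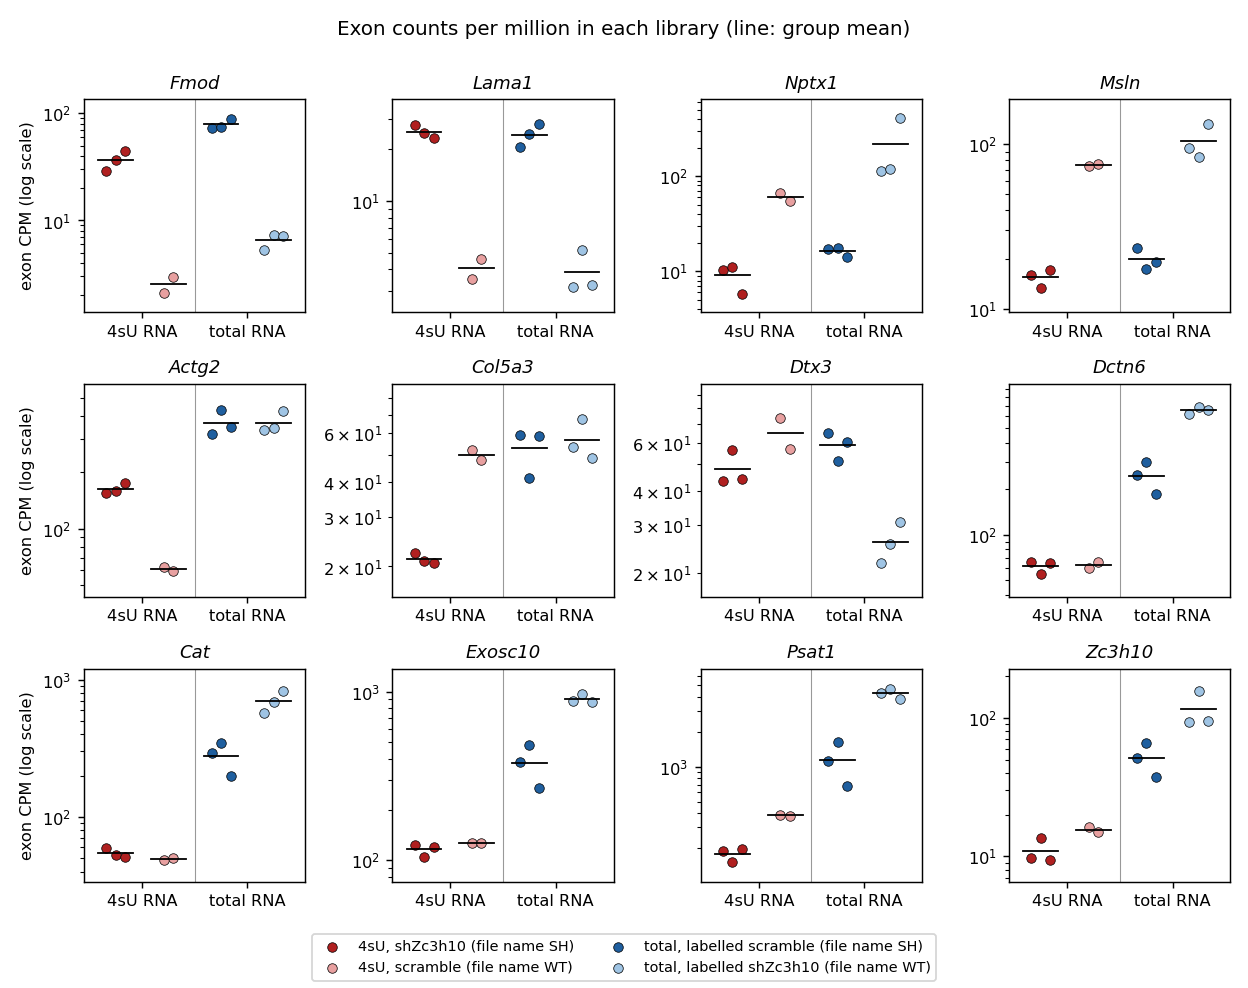
Each point is a library; the y axis gives exon CPM on a log scale, with 4sU RNA on the left and total RNA on the right of each panel, dark points for shZc3h10 or SH-named and pale points for scramble or WT-named libraries, and lines for group means. Fmod, Lama1 and Msln are displaced alike in both kinds of RNA, Nptx1 in both but further in total RNA, Actg2 and Col5a3 in 4sU RNA, and Dtx3, Dctn6, Cat and Exosc10 in total RNA; Psat1 and Zc3h10 are lower in both.

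Some members of the gene lists repeated the pattern of Dctn6, and those given here were chosen after their values were seen. Cat (Entrez 12359), the peroxide-degrading enzyme catalase, stood at 293, 346 and 198 CPM in the SH-named and 569, 684 and 828 CPM in the WT-named total libraries. All 5 libraries of 4sU RNA lay between 48.7 and 59.1 CPM. It fell by 1.31 (SE 0.24, adjusted p = 0.0015) in total RNA and its contrast was 1.44 (SE 0.36, 95% interval 0.70 to 2.19, adjusted p = 0.361 by edgeR).

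Exosc10 (Entrez 50912), the nuclear exosome's exonuclease, stood at 381, 482 and 270.5 CPM against 881, 974 and 868 CPM in total RNA, with a contrast of 1.14 (SE 0.34). Fdft1 (Entrez 14137), squalene synthase, fell by 1.30 (SE 0.24) in total RNA with a 4sU effect of −0.06 and a contrast of 1.24 (SE 0.36). Among genes for mitochondrial proteins, Pdhb, a subunit of pyruvate dehydrogenase, had a contrast of 1.18 (SE 0.41), Etfb, a subunit of the electron transfer flavoprotein, one of 1.32 (SE 0.39), and Mrps27, of the mitochondrial ribosome, one of 1.11 (SE 0.36). Etfb had the largest contrast of the fatty acid oxidation list, where 14 of 22 were below 0 with a median of −0.21. The sterol synthesis and antioxidant lists, which hold Fdft1 and Cat, had medians of 0.10 and 0.18. For Dctn6, Cat and Exosc10 the library labelled scramble 3, which had the largest share of intron counts in total RNA, was the lowest of the SH-named libraries. The part of that share in these contrasts was not tested.

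**Figure D3:**
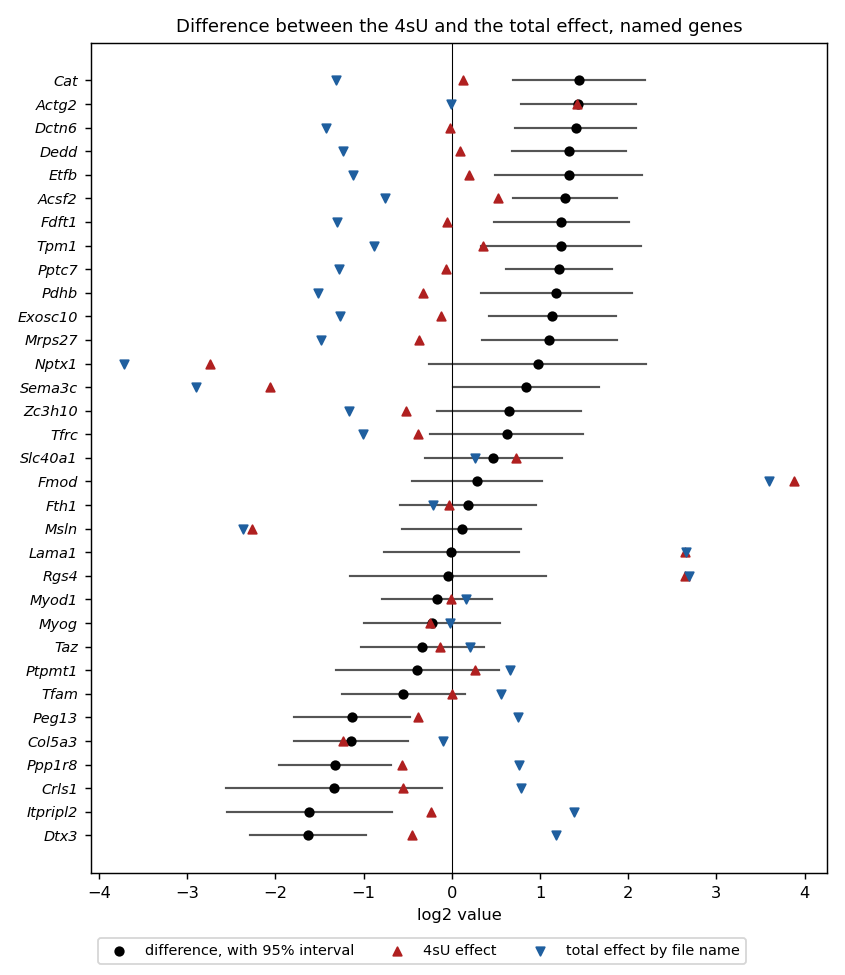
For 33 named genes, black points give the contrast with its 95% interval, red triangles the 4sU effect and blue triangles the total effect (x axis, log2), sorted by the contrast. Red and blue triangles coincide for Lama1, Rgs4 and Msln, the blue triangle is displaced alone for Cat, Dctn6, Dedd and Pptc7, and the red one alone for Actg2 and Col5a3.

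As a class, genes called only in total RNA had 4sU effects that ran the same way as the total effect but were smaller, where Dctn6, Dedd and Pptc7 stood level in 4sU RNA. The total effect alone was called for 1692 genes that fell and 782 that rose, or for 1249 and 1176 with each kind of RNA scaled by itself. Those that fell had median effects of −0.998 in total RNA and −0.24 in 4sU RNA and a median contrast of 0.77, with 786 of the 1692 positive at an unadjusted p below 0.05. Those that rose had medians of 1.08 and 0.37 and a median contrast of −0.69, with 230 of the 782 negative at that threshold. Since the calls and the contrast use the same counts, these medians describe the class and test nothing. The class also rests on the joint fit: with each kind of RNA fitted by itself, 889 genes were called in total RNA and 1412 in 4sU RNA.

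Intron counts, which the contrast does not use, give a second view of the same libraries. Introns are spliced out and degraded quickly, so intron counts in total RNA reflect mostly unspliced precursors. Of the 1692 genes that fell only in total RNA, 1586 had introns tested, and their median total effect over introns was −0.26, against −0.998 over exons and beside 0.08 over introns of all genes with both tested. The total effect over introns was called lower for 292 of the 1586 and higher for 11, where 4.73% and 5.89% of all genes tested over introns were called. Of the 782 that rose only in total RNA, 655 had introns tested, with median total effects of 1.08 over exons and 0.55 over introns. Over introns 201 of the 655 were called higher and 4 lower. Genes called in both effects differed less between their parts than those that fell only in total RNA. The 153 that rose in both had median total effects of 1.66 over exons and 1.17 over introns. For the 84 that fell in both these were −1.48 and −1.07. Since the classes were picked by exon calls, which favours larger exon effects, the gap to introns is a description and no test.

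Genes that are rich in total RNA relative to 4sU RNA made up 723 of the 1155 positive contrasts at an unadjusted p below 0.05. Ranked by the log2 ratio of their mean level in total RNA to that in 4sU RNA, a rough guide to stability, the top 25% of genes (ratios from 0.85 to 5.58) had a median contrast of 0.34, with 723 genes positive and 97 negative at that threshold. The lowest 25% (ratios from −4.56 to −0.75) had a median contrast of −0.18, with 56 positive and 206 negative. The ratio comes from the same libraries as the contrast, so this is a description with no test. Cat (3.21), Dctn6 (2.83) and Actg2 (1.71) were in the top 25% by this ratio and so was Fmod (1.10), whereas Dtx3 (−0.41) and Peg13 (−1.32) were below 0.

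The shift of the top 25% came from the total libraries. Their median deviation from the mean of the same kind of RNA was −0.22, −0.07 and −0.33 in the SH-named total libraries labelled scramble 1, 2 and 3, and 0.10, 0.29 and 0.12 in the WT-named ones. Over 4sU RNA it was −0.04, −0.07 and 0.01 with shZc3h10 and 0.07 and 0.02 with scramble. The SH-named libraries were lower and had the larger shares of intron counts, and the library labelled scramble 3 was lowest and had the largest share. The part of that share in the shift was not tested.

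Lists of genes were read by their counts and medians, beside the same over all genes tested (median contrast 0.02, median 4sU effect −0.02, median total effect 0.01). Since edgeR called 0 genes in the contrast, it called 0 members of every list there. Without the total library labelled scramble 2 it called 27 list entries, beside 1.26% of all genes, and limma voom called 52, beside 3.18%. These counts are not shares of the entries tested and test no list. Lists differed in them, and the 2 given here were picked after the values were seen. Without scramble 2, edgeR called 7 of 49 replication-dependent histones negative and 0 positive, beside 0.483% and 0.778% of all genes. Limma voom called 3 of these 49 negative and 0 positive, beside 0.572% and 2.61%. It called 5 of 25 tricarboxylic acid cycle genes positive and 1 negative, where edgeR without scramble 2 called 0.

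Smooth muscle contractile genes, which encode the actin, myosin and regulatory proteins of smooth muscle and of activated stromal cells, had the highest median contrast of the lists, 0.63. Of 15 tested, 11 were above 0, and 5 were positive and 0 negative at an unadjusted p below 0.05. In 4sU RNA 6 rose and 0 fell, beside 1.28% and 0.685% of all genes, and in total RNA 7 rose and 3 fell, beside 6.21% and 11.8%. With each kind of RNA scaled by itself, 7 rose and 0 fell in total RNA. Mylk, the kinase of myosin light chains, and Lmod1, an actin nucleator, rose in both, by 2.17 and 2.40 for Mylk and by 2.06 and 2.48 for Lmod1, with contrasts of −0.23 and −0.42. Calponin Cnn1 rose in both with a contrast of 0.63, and Acta2, smooth muscle alpha-actin and the most abundant member, had a contrast of 0.33 (SE 0.35).

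Other members moved apart. Besides Actg2, the calponin Cnn2, with a contrast of 1.34 (SE 0.39), and the tropomyosin Tpm1, with one of 1.24 (SE 0.43), fell in total RNA by 0.80 and 0.89, with 4sU effects of 0.54 and 0.35. By library, the list's median deviation was 0.29, 0.31 and 0.54 in 4sU RNA with shZc3h10 against −0.48 and −0.56 with scramble. It was 0.24, 0.23 and 0.01 in the SH-named total libraries against −0.24, −0.15 and −0.12 in the WT-named ones. Both kinds of RNA thus had separate groups, with the wider gap in 4sU RNA. The median contrast was 0.92 without the total library labelled scramble 2, 0.37 without scramble 3, and 0.41 among members at 1 CPM or more in every library.

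By file name, collagens lay higher with the hairpin in both kinds of RNA, by a larger median in total RNA. Of 21 tested, 13 rose and 0 fell in total RNA, beside 6.21% and 11.8% of all genes, with a median effect of 1.02. In 4sU RNA 6 rose and 1 fell, beside 1.28% and 0.685%, with a median of 0.42. The contrast was below 0 for 18 of 21, with a median of −0.50, and 5 were negative and 0 positive at an unadjusted p below 0.05. Col6a1, of the microfibrillar collagen VI, rose by 1.84 in total RNA and by 1.04 in 4sU RNA, a contrast of −0.80 (SE 0.31). Col5a1 and Col5a2, partners of Col5a3 in collagen V, rose in total RNA by 1.08 and 1.02, with 4sU effects of 0.16 and 0.29 and contrasts of −0.92 and −0.73.

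By library, the collagens' median deviation was 0.38, 0.48 and 0.54 in the SH-named total libraries against −0.42, −0.46 and −0.48 in the WT-named ones, so no single total library set the direction. In 4sU RNA it was 0.25, 0.26 and 0.05 against −0.45 and −0.16. The median contrast of the list over introns was 0.02, beside −0.09 over introns of all genes. The exon median was −0.29 without the total library labelled shZc3h10 1 and −0.66 without the 4sU library scramble 1.

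**Figure D4:**
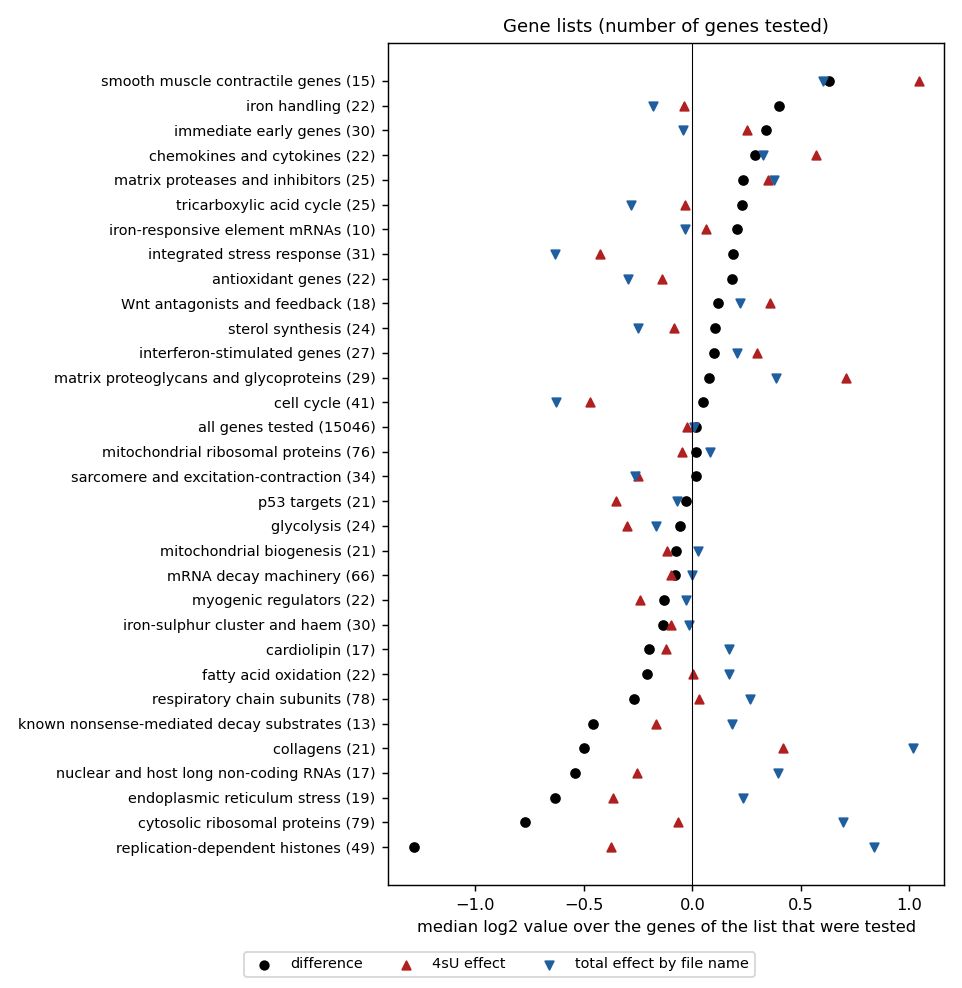
For each list (number of genes tested in brackets), the black point gives the median contrast, the red triangle the median 4sU effect and the blue triangle the median total effect (x axis, log2). Smooth muscle contractile genes have the highest median contrast at 0.63, and cytosolic ribosomal proteins at −0.77 and replication-dependent histones at −1.28 the lowest, where the blue triangle is displaced and the red one lies closer to 0.

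Cell cycle and integrated stress response genes had medians below 0 in both kinds of RNA. Of 41 cell cycle genes, 19 fell and 0 rose in total RNA, beside 11.8% and 6.21% of all genes, and 1 fell in 4sU RNA, beside 0.685%. Their median effects were −0.63 and −0.47 and the median contrast 0.05, which ranged from −0.09 to 0.14 with 1 library left out. The transcription factor E2f2, the member called in both, fell by 1.51 in 4sU RNA and by 1.48 in total RNA, a contrast of −0.04. Rrm1, the large subunit of ribonucleotide reductase, fell by 1.46 in total RNA with a 4sU effect of −0.33, a contrast of 1.13 (SE 0.41). By library the list lay at −0.18, −0.28 and −0.14 with shZc3h10 against 0.30 and 0.27 with scramble in 4sU RNA, and at −0.30, −0.24 and −0.48 against 0.38, 0.33 and 0.06 in total RNA, with no overlap in either.

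Of 31 genes of the integrated stress response, the programme that ATF4 drives when translation initiation is restrained, 12 fell and 0 rose in total RNA, and 3 fell and 0 rose in 4sU RNA, beside the same shares of all genes. Their medians were −0.63 and −0.42, and the median contrast 0.19, or 0.10 without the total library labelled scramble 3. Atf3, Stc2 and Gdf15 fell in both. Psat1 (Entrez 107272), of serine synthesis, stood at 1113, 1619 and 676 CPM in the SH-named against 4333, 4649.9 and 3846 CPM in the WT-named total libraries. Its 4sU levels were 188, 152 and 194 CPM against 387 and 374 CPM, so neither kind of RNA had overlapping groups. It fell by 1.91 (SE 0.28, adjusted p = 3.33e-04) in total RNA, its 4sU effect was −1.09 (SE 0.30, adjusted p = 0.0769), and the contrast was 0.82 (SE 0.41, 95% interval −0.05 to 1.69).

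Chac1, a stress-induced enzyme that degrades glutathione, had the largest positive contrast of the list, 1.27 (SE 0.38), from a total effect of −1.71 and a 4sU effect of −0.45. Genes of endoplasmic reticulum stress had a median contrast of −0.63, further from 0 than that of either list above, which was −0.35 without the total library labelled scramble 3 and −0.96 without the 4sU library scramble 2. Of 19 tested, 13 were below 0, and 4 fell and 0 rose in total RNA, beside 11.8% and 6.21% of all genes, although the median total effect was 0.23. The chaperone Hsp90b1 fell by 1.13 in total RNA and had a contrast of 0.76, while Hspa5 (BiP), Calr and Canx had contrasts of −0.79, −0.69 and −0.79. By library, this list lay at 0.33, −0.41 and 0.36 in the SH-named and at −0.04, 0.09 and −0.14 in the WT-named total libraries, so the groups overlapped and the library labelled scramble 2 lay on the other side of its group.

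The lowest medians were those of cytosolic ribosomal proteins and replication-dependent histones, at median levels of 43.6 and 1.80 CPM beside 15.02 CPM for all genes tested. Single total libraries stood apart in both lists. Of 79 cytosolic ribosomal protein genes, 68 had a contrast below 0 and 11 above, with a median of −0.77, and 17 were negative and 2 positive at an unadjusted p below 0.05. In total RNA 19 rose and 3 fell, beside 6.21% and 11.8% of all genes, with a median effect of 0.70, or 29 and 2 with each kind of RNA scaled by itself, and in 4sU RNA 0 were called, with a median of −0.06. By library the list lay at 0.62, −0.33 and 0.62 in the SH-named total libraries and at −0.07, 0.00 and −0.85 in the WT-named ones. The libraries labelled scramble 2 and shZc3h10 3, which also had the lowest sample weights, were the low ones, and the groups overlapped. Without shZc3h10 3 the median contrast was −0.53, and without scramble 2 it was −0.98.

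Rpl4, a protein of the large ribosomal subunit and the most abundant of the list, went against the median: it fell by 1.10 (SE 0.25) in total RNA and had a contrast of 0.96 (SE 0.37). Of 49 replication-dependent histone genes, whose mRNAs lack a poly(A) tail, 48 had a contrast below 0, with a median of −1.28, and 14 were negative and 0 positive at an unadjusted p below 0.05. In total RNA 9 rose and 0 fell, beside 6.21% and 11.8% of all genes. Filtered in each kind of RNA by itself, 27 of the 49 were tested. The others may have passed the joint filter on the kind where they are higher, so the count of 48 is a description. Hist1h4d stood at 606, 153 and 714 CPM in the SH-named against 236, 252 and 151 CPM in the WT-named total libraries, and between 20.3 and 24.8 CPM in 4sU RNA. Its library labelled scramble 2 lay among the WT-named ones.

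The histone list had a median deviation of 0.72, −0.47 and 0.43 in the SH-named and of −0.22, −0.08 and −0.36 in the WT-named total libraries, so these groups overlapped too. Its median contrast was −1.66 without the library labelled scramble 2 and −0.88 without scramble 1. The median transcript of the list is 539 bases long, and 1059 bases for the ribosomal proteins. All 850 genes tested with transcripts under 1000 bases had a median contrast of −0.29. Over all genes length had a Spearman's rho of 0.01 with the contrast, and the part of transcript length, of sample weight and of reads shared between near-identical copies in these lists was not tested.

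**Figure D5:**
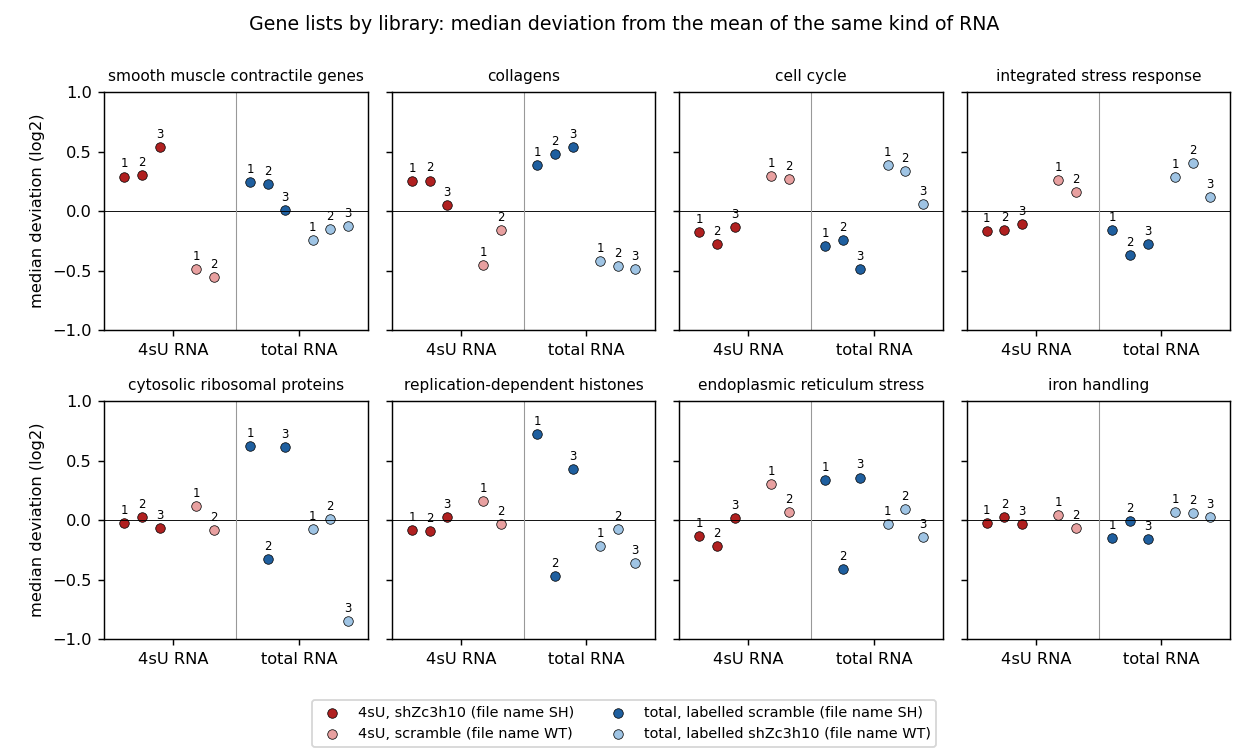
Each point is a library (numbered by replicate); the y axis gives the list's median deviation, on log2(CPM + 1), from each gene's mean over libraries of the same kind of RNA. Smooth muscle, collagen, cell cycle and integrated stress response genes have separate groups in both kinds of RNA, whereas for ribosomal proteins, histones and endoplasmic reticulum stress the total library labelled scramble 2 lies below the other SH-named ones.

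Iron handling genes had a median contrast of 0.40, beside 0.02 over all genes, and 0.23 without the 4sU library scramble 2. Of 22 tested, 16 were above 0, and 4 were positive and 0 negative at an unadjusted p below 0.05, beside 7.68% and 3.67% of all genes. In total RNA 4 fell and 0 rose, beside 11.8% and 6.21%. Tfrc, the transferrin receptor that brings iron into cells, stood at 209.6, 286 and 169.8 CPM in the SH-named and at 462, 595 and 281 CPM in the WT-named total libraries. The groups overlapped by 1 library each, and it fell by 1.01 (SE 0.27, adjusted p = 0.018 by edgeR). Its 4sU levels were 64.1, 46.6 and 61.5 CPM against 65.1 and 85.3 CPM, and its contrast was 0.62 (SE 0.41).

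The iron chaperones Pcbp1 and Pcbp2, which also bind RNA, fell by 1.33 and 0.70 in total RNA and had contrasts of 1.15 (SE 0.33) and 0.65 (SE 0.31). The lysosomal channel Mcoln1 fell by 1.88 in total RNA and had a contrast of 1.49 (SE 0.55). Ferritin heavy chain Fth1 had a contrast of 0.18 (SE 0.37), ferritin light chain Ftl1 one of −0.16, and the iron exporter Slc40a1 one of 0.47 (SE 0.37). By library the list moved little, between −0.16 and 0.07 in every library.

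Of 17 cardiolipin genes, 11 were below 0, with a median contrast of −0.20, which ranged from −0.36 without the 4sU library scramble 2 to −0.03 without the total library labelled shZc3h10 3. Crls1, which makes cardiolipin in its last step of synthesis, stood at 6.26, 6.40 and 5.52 CPM with shZc3h10 against 9.64 and 8.09 CPM with scramble in 4sU RNA. In total RNA it stood at 3.09, 1.94 and 4.79 CPM in the SH-named and at 2.26, 2.81 and 0.655 CPM in the WT-named libraries, so the 4sU groups lay apart and the total groups overlapped. Its contrast was −1.34 (SE 0.58, 95% interval −2.57 to −0.11, adjusted p = 0.410 by edgeR), with a 4sU effect of −0.55 and a total effect of 0.79, neither of which was called. Tafazzin (Taz, Entrez 66826), which remodels cardiolipin, had a contrast of −0.33 (SE 0.33), and the phosphatase Ptpmt1 one of −0.39 (SE 0.44). The 2 most abundant members went the other way, Hadha with a contrast of 1.01, the largest of the list, and Prelid1 with 0.40.

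Among mitochondrial lists, 78 respiratory chain subunits had a median contrast of −0.27, with 50 below 0, and 76 mitochondrial ribosomal proteins one of 0.02, with 38 on each side. With 1 library left out, the first ranged from −0.48 to −0.15 and the second from −0.15 to 0.15. In total RNA 10 respiratory chain subunits rose and 5 fell, and 0 mitochondrial ribosomal proteins rose and 10 fell, beside 6.21% higher and 11.8% lower over all genes. With each kind of RNA scaled by itself, 16 respiratory chain subunits rose and 4 fell. By library these subunits lay at 0.39, −0.35 and 0.37 in the SH-named total libraries and at −0.05, 0.09 and −0.36 in the WT-named ones. The groups thus overlapped, and the libraries labelled scramble 2 and shZc3h10 3 were the low ones, as for cytosolic ribosomal proteins. Their median transcript is 1135 bases long, and the part of length and of sample weight was not tested. Tricarboxylic acid cycle genes had a median contrast of 0.23, with 17 of 25 above 0, or 0.07 without the 4sU library shZc3h10 3 and 0.46 without the total library labelled scramble 2, and 7 fell and 0 rose in total RNA. Tfam, which packages mitochondrial DNA, had a contrast of −0.55 (SE 0.33). The regulator Ppargc1a had one of 0.73 (SE 0.71), at 1.33 CPM or less in every library, a level that limits its precision.

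Of the 8 myoblast markers, 6 fell in total RNA and 2 in 4sU RNA, beside 11.8% and 0.685% of all genes. Their median contrast was 0.22, or 0.03 without the total library labelled scramble 3. Myod1 and Myog, the transcription factors that commit and differentiate muscle cells, had contrasts of −0.17 (SE 0.30) and −0.23 (SE 0.37). The laminin receptor Itga7 fell in both kinds of RNA, by 1.15 in 4sU RNA and by 1.28 in total RNA, with a contrast of 0.13 (SE 0.34). Its levels were 351, 345 and 319.6 CPM against 768 and 732 CPM in 4sU RNA, and 536, 856 and 529 CPM against 1526, 1585 and 1537 CPM in total RNA. Lpl, lipoprotein lipase and the adipocyte marker with the highest level, rose by 1.58 in 4sU RNA and by 1.77 in total RNA, a contrast of −0.19, while the defining adipocyte marker Adipoq stayed at 0.272 CPM or less.

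Of 66 genes of the mRNA decay machinery, the list that holds Exosc10, 28 were above 0 and 38 below, with a median contrast of −0.08, and 8 fell and 0 rose in total RNA, beside 11.8% and 6.21% of all genes, or 5 and 0 with each kind of RNA scaled by itself. Immediate early genes, whose mRNAs turn over quickly, had a median contrast of 0.34, with 18 of 30 above 0. It was 0.17 without the 4sU library shZc3h10 3 or the total library labelled shZc3h10 3, 0.19 without the total library labelled scramble 2 or 3, and 0.22 without the 4sU library scramble 2. Known targets of nonsense-mediated decay had a median of −0.46, with 10 of 13 below 0, which was −0.19 without the total library labelled shZc3h10 3 and −0.71 without shZc3h10 2. Nuclear and host non-coding RNAs had one of −0.54, with 14 of 17 below 0.

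Over introns the contrast gave the same count. Of 15320 genes tested over introns, edgeR called 0 (0%), the smallest adjusted p was 0.506, and 724 (4.73%) were positive and 597 (3.9%) negative at an unadjusted p below 0.05. DESeq2 called 35, limma voom 20 and separate fits 158, and 0 were called when any 1 library was left out. With a block for harvest, by file name and number, edgeR called 86, of which 83 were positive and 3 negative. The 4sU effect over introns was called for 817 genes (5.33%; 3.32% higher and 2.02% lower) and the total effect for 1628 (10.6%). By file name, all 484 genes called in both moved in the same direction, 300 higher and 184 lower, and with the labels followed they would be opposite. With hairpins as labelled, the contrast over introns was called for 2233 genes (14.6%), 1206 (7.87%) positive and 1027 (6.7%) negative, and for 1153 without the 4sU library scramble 1. Fmod rose over introns by 3.41 in 4sU RNA and by 1.38 in total RNA, an intron contrast of 2.03 (SE 0.51, adjusted p = 0.506 by edgeR) where its exon contrast was 0.28.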

How the data were processed

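Per the file headers, each library came as read counts per gene over exons and over introns, 22 deposited files with an Entrez identifier and a symbol per gene. Per the submitters' processing notes, the authors used the build mm9 and the aligners TopHat2 (version 2.0.8) and TopHat. How reads were counted, the annotation and strandedness are not stated in the sources used here, so counts of overlapping or antisense genes and of near-identical copies are uncertain. All 11 libraries entered 1 fit in edgeR 4.0.16 (R 4.3.3) with 4 group means, trimmed mean of M values (TMM) scaling, and filterByExpr (min.count 10, min.total.count 15). SEs came from the F statistic of the quasi-likelihood test, and CPM are counts scaled to TMM library size. Genes were called at a Benjamini-Hochberg adjusted p below 0.05. Alternatives used DESeq2 1.42.0, limma 3.58.1, other scalings and filters, and left out single libraries. The fit was also run on simulated counts, drawn with the same spread in every library, unlike these total libraries. That run does not show how well the calls hold here.

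The contrast, the gene lists and the tests were chosen with earlier results of these data known. Named genes are the 5 of smallest p each way at or above the median level, the 3 largest 4sU effects each way among genes called in both effects, the 2 most abundant members of a list, and 13 set by name; further list members were chosen after their values were seen. Whether equal replicate numbers mark the same harvest is not known. The deviations of 4sU and total libraries with the same number, by file name, correlated between −0.12 and 0.08. With so few libraries per group this cannot settle the pairing, and the main fit did not pair samples.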

Additional observations from a re-analysis of the deposited data

Results flagged for a closer look

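With hairpins taken as labelled, the difference between the 4sU effect and the total effect was called by edgeR for 2123 genes over exons and for 2233 genes over introns, where it was called for 0 by file name. These counts are listed because the effects of the same contrast differ between the kinds of RNA once the labels are followed. They hold if the labels of the 6 total RNA libraries are right, and the labels and file names cannot be told apart by the contrast itself.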

How the results depend on the processing

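Depth limits the precision of genes under about 1 CPM. Counts of list members below stand beside counts over all genes and are not shares of the members tested. With DESeq2, the contrast over exons was called for 78 genes, the 4sU effect for 519, both effects in the same direction for 398, list members for 13 and the contrast over introns for 35. With limma voom these were 478, 1536, 789, 52 and 20, the contrast as labelled was called for 3971 genes over exons and 4336 over introns, and 87.2% of genes called in 4sU RNA lay on the same side in total RNA, where the value given by edgeR was 98.3%. Limma voom called 797 genes in both effects when opposite directions are counted too. Separate fits gave 94, 1412, 451, 12 and 158, with 3256 as labelled, 889 for the total effect and 88.6% on the same side. Without a filter on low counts the contrast was called for 9 genes, the 4sU effect for 455 and list members for 2. Without both total libraries of lowest weight, a setting added after the data were seen, the contrast was called for 1420 genes over exons and 1 over introns, with 4044 as labelled, 863 for the 4sU effect, 4559 for the total effect, 561 for both in the same direction, 188 list members and 89.8% on the same side. With 1 library left out, the ranges were 0 to 188 for the contrast over exons, 1029 to 3246 as labelled, 31 to 467 for the 4sU effect, 1280 to 4307 for the total effect, 30 to 343 for both, 94.5% to 100% for the same side and 0 to 27 for list members; over introns they were 0 for the contrast and 1153 to 2471 as labelled. With the replicate number as a block, the 4sU effect was called for 171 genes and both effects for 141, and the contrast for 0 over exons; with a block for harvest, by file name and number, the contrast was called for 0 genes over exons and 86 over introns. These blocks group samples by number, and whether equal numbers mark the same harvest is not known. The contrast of Zc3h10 was 0.75 and 0.74 under them. Scaling each kind of RNA by itself moved the median total effect from 0.01 to 0.12 and the median contrast from 0.02 to −0.07; the total effect was then called higher for 1342 and lower for 1320 genes, against 935 and 1776, and the contrast as labelled positive for 1009 and negative for 908, against 835 and 1288. Of 36 list medians, 15 turned sign under at least 1 of 21 settings, those of mitochondrial ribosomal proteins, cell cycle and myogenic regulators among them, and 21 did not, those of histones, ribosomal proteins, collagens and smooth muscle genes among them. The cause of these changes was not tested.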
